A study of Homo sapiens with 4 samples.

Results

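RNA-seq of Jurkat T cells, a human T-cell leukemia line used as a model of T-cell activation, was examined for 10 genes of the AP-1 family: JUN, JUNB, JUND, FOS, FOSB, FOSL1, FOSL2, BATF, BATF3 and ATF3. They were taken by gene symbol from the 50868 genes in the files. All cells were labelled wild type and were cultured for 24 h in 1 of 4 conditions. These were DMSO (the solvent control), JQ1 at 0.5 μM, and the same 2 treatments in the presence of PHA at 150 ng/ml, written DMSO + PHA and JQ1 + PHA. JQ1 blocks the bromodomains of BET proteins, and PHA (phytohemagglutinin) is a lectin that stimulates T cells through surface glycoproteins. Each condition had 1 library, so no spread between replicates can be had and no difference below has a test between conditions. The 95% intervals cover counting error only. They may be too narrow even for that, since reads without molecular identifiers are not independent molecules. Because RNA of whole cultures was sequenced, fewer cells that carry an RNA and less of it per cell cannot be told apart.

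AP-1 is not 1 protein but a set of dimers. Each member has a basic region that contacts DNA and a leucine zipper that holds the pair together. JUN proteins pair with one another or with FOS proteins, while FOS proteins need a JUN partner to bind DNA. BATF proteins lack a transactivation domain of their own, pair with JUN proteins and, in lymphocytes, bind composite sites together with IRF4 or IRF8. In T cells AP-1 carries the kinase branch of antigen-receptor signalling to genes such as IL2, usually beside NFAT, and the balance between JUN and BATF dimers has been linked to T-cell exhaustion.

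AP-1 dimers read the sequence TGACTCA and its longer form TGACGTCA, and some AP-1 genes carry such a sequence in front of their own start. The 250 bases upstream of RefSeq start sites (GRCh38.p14) were searched on both strands for TGACTCA, TGACGTCA and TGACATCA, which do not overlap one another in these windows, and for CCAAT and TATAAA. Windows were present for 8 of the 10 genes, with 9 start sites in all. FOSL1 and BATF3 had no window. The 3 matches to an AP-1 or CRE-type sequence are shown with 11 bases on each side, 5′ to 3′ on the strand of the gene, with the matched bases in capitals, because JUN and JUND were higher with JQ1 in the results that follow.
JUN, chr1:58784096-58784125, minus strand: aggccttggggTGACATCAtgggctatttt
ATF3, chr1:212565273-212565302, plus strand: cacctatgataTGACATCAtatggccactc
JUND, chr19:18281804-18281833, minus strand: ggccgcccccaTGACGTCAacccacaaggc
The JUN match lay from base -67 to base -60 relative to the RefSeq start site, the ATF3 match from -123 to -116 and the JUND match from -200 to -193. The deposited coordinates of JUN reach chr1:58784327, beyond the RefSeq start at 58784047. By those coordinates the JUN match lies inside the gene. TGACATCA was present in 2.37% and TGACGTCA in 1.65% of the 35116 windows of all genes. TGACTCA, present in 4.20% of all windows, was in none of the 9 windows. JUN, JUND, JUNB and the first ATF3 window also held CCAAT (32.0% of all windows), and FOS, FOSB and JUNB held TATAAA (10.7% of all windows) between base -33 and base -25. The second ATF3 window held TATAAA further upstream, at -230. The BATF and FOSL2 windows held none of the 5 sequences. These are matches of letters, no binding was measured, and a link between the matches and the levels with JQ1 was not tested.

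Library totals ran from 18620954 to 19685401 counts, so a floor of 3 counts corresponded to 0.152 to 0.161 CPM (counts scaled to a common library size). All 9 T-cell markers had an FPKM (counts corrected for gene length and library size) of at least 1 in every library, with a summed FPKM of 527 to 904. Of the 3 B-cell markers CD79A alone reached 1, the B-cell sum running from 1.01 to 7.50, and no myeloid, erythroid, epithelial or fibroblast marker did. The labels were checked with 3 genes. HEXIM1, known to respond to BET inhibitors, stood at an FPKM of 36.2 in the DMSO and 109 in the JQ1 library, and at 34.6 and 104 in the PHA libraries. CD69, an early activation marker, stood at 1.05 without and 20.4 with PHA in cells given DMSO, and EGR1, an immediate early factor, at 0.491 and 39.9.

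The AP-1 RNA of resting Jurkat cells was mostly JUN-type and BATF-type, with little FOS. By the deposited FPKM of the DMSO library, JUNB led at 6.63, followed by JUND at 4.45, BATF at 4.24, BATF3 at 4.0 and JUN at 2.57. On this FPKM the counting intervals of JUNB and JUND were apart, and those of JUND with BATF and of BATF with BATF3 overlapped. These intervals do not cover the gene lengths used, on which the order depends as set out below. FOSL2 had 0.861 and ATF3 0.432, while FOSB had 0.0612 (19 counts), and FOSL1 (0.0413, 4 counts) and FOS (0.0117, 2 counts) were near the floor of 3 counts. JUN, JUNB, JUND, BATF and BATF3 averaged an FPKM of 1 or more over the 4 libraries, and so entered the comparison across the 11503 genes that passed this filter. The other 5 did not, and their values are given as counts.

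The first question was how BET inhibition shifts the family without stimulation. The BATF genes were lower past 2-fold with JQ1, and JUN and JUND were higher beyond counting error but inside 2-fold. Calls past 2-fold used the log2 ratio of FPKM + 0.1, on which 5.22% of all genes that passed the filter were higher and 8.65% were lower. Of the 5 AP-1 genes that passed it, 2 were lower (BATF and BATF3) and 0 were higher. BATF3 reached the mean of the filter only through the libraries without JQ1 (FPKM 4.0 and 3.91, against 0.775 and 0.667 with JQ1). BATF stood at 0.696 in the JQ1 + PHA library. The filter thus admitted BATF3 through the libraries where it was high, and the count of 2 is only a description. Counting intervals of the count ratio excluded 0 for all 5, as they did for 75.6% of all genes, so at this depth an interval without 0 is common. The median log2 ratio of the 5 was -0.42 (2 above 0 and 3 below), against -0.01 for all genes.

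JUN, the transactivating member whose homodimers and FOS dimers define classical AP-1, is encoded by a gene without introns at chr1:58780788-58784327 (GRCh38, minus strand, ENSG00000177606). Its counts were 171 (DMSO), 328 (JQ1), 118 (DMSO + PHA) and 271 (JQ1 + PHA), or FPKM of 2.57, 4.71, 1.69 and 4.11. Both JQ1 libraries were above both libraries without it. The log2 ratio for JQ1 over DMSO came to 0.88 (0.60 to 1.15, the exact 95% interval), a 1.83-fold difference, and 92.4% of the genes in the filter had a lower ratio. With PHA in both arms the log2 ratio was 1.28 (0.96 to 1.60), 2.43-fold, above 97.8% of genes. The PCR assay the study used for c-Jun reads the same RNA, so its primers are shown to place it:
c-Jun forward: ctgcaaagatggaaacgacct
c-Jun reverse: ggattatcaggcgctccag
They matched chr1:58783046-58783066 and chr1:58782827-58782845 (GRCh38), span 240 bases inside the single exon and were found together in transcripts of 1 gene of GENCODE 44, in 3 of the 3 JUN transcripts annotated there.

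JUND, the JUN protein most abundant in resting cells of many tissues, is an intronless gene at chr19:18279760-18281622 (minus strand), with the match shown above. Its counts were 198, 412, 327 and 391 with DMSO, JQ1, DMSO + PHA and JQ1 + PHA, or FPKM of 4.45, 8.86, 7.03 and 8.89. The DMSO library alone stood low, and the 2 JQ1 libraries lay at the same level. The log2 ratio for JQ1 over DMSO came to 0.99 (0.74 to 1.24), 1.99-fold, just inside the 2-fold line, which it crossed when FPKM were rescaled to a common total or counts were scaled by edgeR or DESeq2 factors (3 members past 2-fold in place of 2). With PHA it was 0.34 (0.12 to 0.55).

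JUNB, which activates some AP-1 sites and restrains JUN at others, lies at chr19:12791496-12793315 (plus strand). Its counts were 227, 177, 331 and 194 in the same order, or FPKM of 6.63, 4.94, 9.24 and 5.72. The JQ1 libraries were the lower ones in both pairs, so JUNB differed in direction from JUN and JUND. The log2 ratio was -0.42 (-0.72 to -0.13) without PHA and -0.69 (-0.95 to -0.43) with PHA, and neither passed 2-fold. JUNB shares 259 exon bases with HOOK2 on the other strand, which had 400, 441, 522 and 449 counts. The labels name a universal library kit and the study's methods a stranded one, and whether counting used strand is not given in the sources used here, so reads of the shared bases may belong to either gene.

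**Figure D1:**
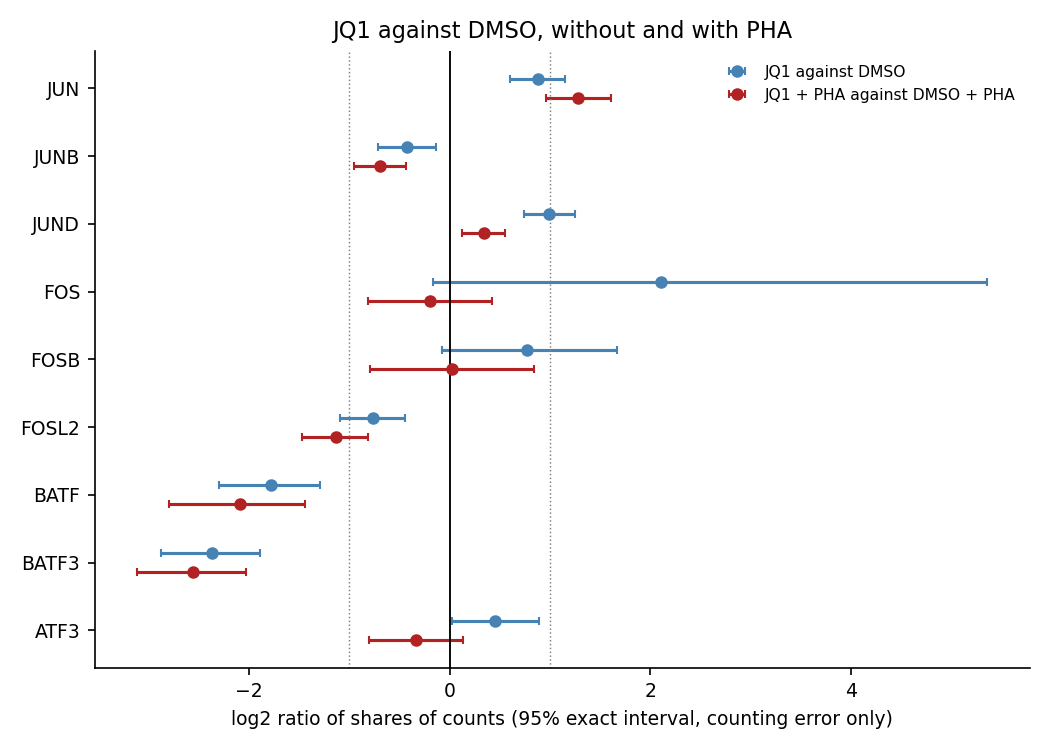
Log2 ratio of shares of counts, JQ1 over DMSO (blue) and JQ1 + PHA over DMSO + PHA (red), with exact 95% intervals for counting error, a solid line at 0 and dotted lines at 2-fold. FOSL1 is not drawn because it had 0 counts in both JQ1 libraries. BATF and BATF3 lay past 2-fold on the lower side in both comparisons, and the intervals of JUND did not overlap between them.

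BATF, a partner of JUN proteins that is induced in activated and exhausted T cells, lies at chr14:75522425-75547015 (plus strand, ENSG00000156127). Its counts were 148 (DMSO), 45 (JQ1), 108 (DMSO + PHA) and 24 (JQ1 + PHA), or FPKM of 4.24, 1.23, 2.96 and 0.696. The 2 JQ1 libraries were both below the 2 others. The log2 ratio for JQ1 over DMSO came to -1.78 (-2.30 to -1.29), 3.44-fold lower, and 290 of the 11503 genes had a lower ratio of FPKM. With PHA it was -2.09 (-2.79 to -1.44), 4.26-fold lower, with 211 genes below it.

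BATF3, its paralog known from cross-presenting dendritic cells and memory T cells, lies at chr1:212686418-212699985 (minus strand, ENSG00000123685). Its counts were 212, 43, 217 and 35, or FPKM of 4.0, 0.775, 3.91 and 0.667. The values formed a high pair without JQ1 and a low pair with JQ1. The log2 ratio was -2.37 (-2.87 to -1.89) without PHA, 5.16-fold lower with 145 genes below it, and -2.55 (-3.11 to -2.03) with PHA, 5.86-fold lower with 136 genes below it. BATF3 had the lowest JQ1 ratio of the 9 members with counts in every library, in both comparisons, though its interval overlapped that of BATF.

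ATF3, a stress-induced factor of the same bZIP class that can repress as a homodimer, lies at chr1:212565334-212620777 (plus strand). It had 79, 113, 92 and 69 counts, or FPKM of 0.432, 0.591, 0.481 and 0.382, a narrow range. The log2 ratio for JQ1 over DMSO came to 0.45 (0.02 to 0.89) and with PHA -0.33 (-0.81 to 0.13).

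FOSL2, the FOS protein with the most RNA here, lies at chr2:28392448-28417312 (plus strand) and had 208, 128, 258 and 111 counts, or FPKM of 0.861, 0.506, 1.02 and 0.464. Both JQ1 libraries were again the lower ones. The log2 ratio was -0.77 (-1.09 to -0.44) without PHA and -1.14 (-1.47 to -0.81) with PHA, 2.20-fold lower. FOS, the immediate early partner of JUN, had 2 and 9 counts with DMSO and JQ1, a log2 ratio of 2.11 with an interval from -0.17 to 5.35, so no difference was detectable at this depth. With PHA it had 52 and 43 counts, a log2 ratio of -0.19 (-0.81 to 0.42). FOSB, an immediate early relative, had 19, 34, 28 and 27 counts, and the intervals of both JQ1 ratios included 0 (-0.08 to 1.67 and -0.79 to 0.84). FOSL1 had 4, 0, 3 and 0 counts. With 0 set to 3 counts per library it was 1.39-fold lower with JQ1 than with DMSO, a value fixed by that floor. The interval of the log2 ratio included 0 and reached 0.53, so no difference was detectable.

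With PHA in both arms, JQ1 put 3.69% of the genes in the filter past 2-fold on the higher side and 8.00% on the lower side. Of the 5 AP-1 genes 1 was higher (JUN) and 2 were lower (BATF and BATF3). The limit given above for how the filter admitted BATF3 holds here too. With a pseudocount of 1 the log2 ratio of JUN was 0.92, inside 2-fold. Intervals excluded 0 for all 5, against 72.9% of all genes. The median log2 ratio of the 5 was -0.68, against -0.02 for all genes.

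The JQ1 ratio was set against itself with and without PHA by the ratio of ratios, whose interval again covers counting error only. It excluded 0 for JUND, ATF3 and, by a narrow margin, FOS. For JUND the ratio with PHA minus that without it was -0.65 on the log2 scale (-0.98 to -0.33), and the DMSO library was the low one. For ATF3 the difference was -0.79 (-1.40 to -0.17), with opposite signs in the 2 comparisons, though the interval with PHA included 0. For FOS it was -2.30 (-4.59 to -0.01), which rests on the 2 counts of the DMSO library, and with edgeR or DESeq2 factors the interval included 0. For BATF (-0.31, -1.11 to 0.49), BATF3 (-0.19, -0.89 to 0.51), FOSL2 (-0.37, -0.82 to 0.08), JUNB (-0.27, -0.65 to 0.11) and FOSB (-0.75, -1.86 to 0.37) the intervals included 0. JUN had 0.40 (-0.01 to 0.82), and its interval excluded 0 with edgeR factors (0.02 to 0.84) and with DESeq2 factors (0.01 to 0.83).

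The second question was what 24 h of PHA did to the family. FOS was higher, and no other member with counts in both libraries differed by 2-fold. In cells without JQ1, 3.29% of the genes in the filter were past 2-fold in either direction, and 0 of the 5 AP-1 genes were. FOS, outside the filter, had 2 counts with DMSO and 52 with DMSO + PHA, a log2 ratio of 4.64 (2.71 to 7.72), and an FPKM of 0.0117 and 0.290. JUNB (0.48, 0.23 to 0.73) and JUND (0.66, 0.40 to 0.92) were higher with PHA, and JUN (-0.60, -0.95 to -0.25) and BATF (-0.52, -0.89 to -0.15) were lower. These 4 of the 5 genes in the filter had intervals without 0, against 49.8% of all genes. The intervals of BATF3, FOSB, FOSL1, FOSL2 and ATF3 included 0. This comparison shares the DMSO library with that of JQ1 and DMSO.

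In JQ1-treated cells 2.07% of the genes in the filter were past 2-fold with PHA, and again 0 of the 5 AP-1 genes. FOS had 9 counts without PHA and 43 with it, a log2 ratio of 2.34 (1.28 to 3.56), 5.05-fold. BATF was lower at -0.83 (-1.61 to -0.08), the 1 gene of the 5 whose interval excluded 0, against 31.4% of all genes. ATF3 was lower at -0.63 (-1.09 to -0.19). JUN (-0.20, -0.43 to 0.04), JUNB (0.21, -0.09 to 0.51) and JUND (0.00, -0.20 to 0.21) had intervals that included 0, as did FOSB, FOSL2 and BATF3.

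**Figure D2:**
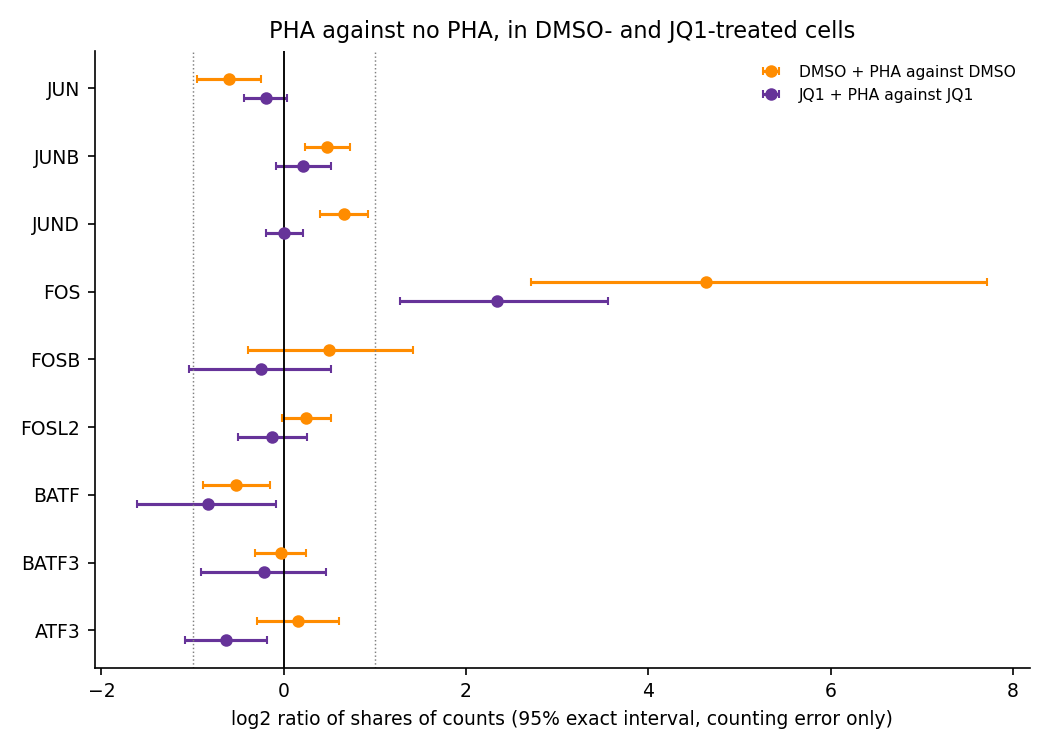
Log2 ratio of shares of counts with PHA over without PHA, in DMSO-treated cells (orange) and in JQ1-treated cells (purple), with exact 95% intervals for counting error, a solid line at 0 and dotted lines at 2-fold. FOSL1 is not drawn. FOS is the 1 gene whose intervals lie wholly above 2-fold in both comparisons.

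Since AP-1 proteins act as pairs, the make-up of the family was set out as shares of the summed FPKM of the 10 genes, which came to 23.3, 21.8, 26.7 and 21.3 in the order DMSO, JQ1, DMSO + PHA and JQ1 + PHA. JUN, JUNB and JUND together made up 58.6%, 85.0%, 67.2% and 88.0% in the same order. BATF and BATF3 made up 35.4%, 9.23%, 25.7% and 6.41%. The 4 FOS genes stayed between 3.04% and 5.33%. The FPKM of JUN was 0.605 times that of BATF with DMSO and 3.82 times with JQ1, and 0.572 and 5.91 times with PHA. The summed level thus varied less than the split between JUN-type and BATF-type RNA. These are shares of RNA, and neither AP-1 protein nor dimers were measured in these libraries.

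Levels of different genes depend on the length that each FPKM was divided by. The deposited FPKM and counts together imply a gene length that exceeded the whole gene for JUND (2363 against 1863 bases), FOS (9099 against 3457) and FOSB (16506 against 7185). It was 2.00 times the exon length in GENCODE 44 for BATF, 2.73 times for FOSL1, 2.43 times for ATF3 and 1.79 times for FOSL2. With counts divided by exon length, BATF was the leading gene of the DMSO library at 8.48, above JUNB at 6.59 and JUND at 5.46. The JUN level was then 0.296, 1.87, 0.280 and 2.89 times that of BATF in the DMSO, JQ1, DMSO + PHA and JQ1 + PHA libraries. In the same order BATF and BATF3 together made up 42.4%, 12.5%, 30.2% and 8.33% of the family. The count ratio of 1 gene between libraries does not depend on this length, but the filter and the ratio of FPKM + 0.1 do. With exon lengths for the 10 genes, FOSL2 (mean 1.28) and ATF3 (mean 1.15) also passed the filter, and FOSL2 was past 2-fold for JQ1 with PHA at -1.05, so that 4 members were called there in place of 3.

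**Figure D3:**
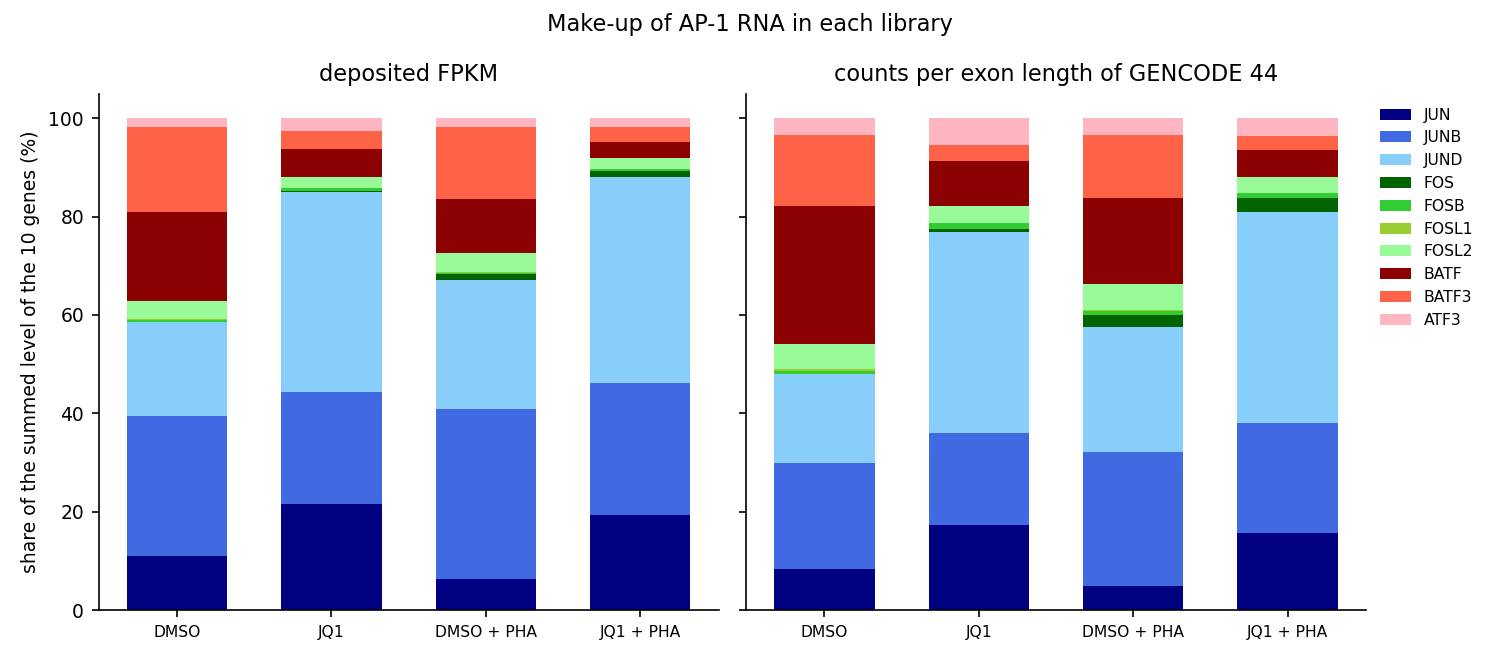
Share (%) of each AP-1 gene in the summed level of the 10 genes, per library, from the deposited FPKM (left) and from counts per exon length (right). The BATF and BATF3 segments are shorter in both JQ1 libraries and the JUN and JUND segments longer than in the libraries without JQ1, by either length.

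For each AP-1 gene in the filter, the 3 genes with the nearest profile were found by the root mean square (RMS) difference of centred log2(FPKM + 0.1) over the 4 libraries. With 4 libraries and 11503 genes near matches are many, so these are descriptions. Among the nearest profiles to JUN were those of IGHV4-34 (an immunoglobulin variable gene, RMS 0.05) and CIRBP (a cold-inducible RNA-binding protein, 0.07). JUND was nearest to LMBR1 (0.02), PBXIP1 (0.03) and RBMS1P1 (0.03), and JUNB to SEPTIN1 (0.02), ADGRE5 (0.03) and HOMER1 (0.03). BATF was nearest to LINC01260 (0.09), SUMO3 (0.15) and HOXA5 (0.16), and BATF3 to ELOVL6 (a fatty acid elongase, 0.02), PPARGC1B (0.06) and C10orf107 (0.08). BATF and BATF3 were 0.35 apart, with 158 genes nearer to BATF than BATF3 was, and JUN and JUND were 0.48 apart, with 3465 genes nearer to JUN.

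Around the family, 6 lists of AP-1 partners, regulators and targets were read on the same filter and fold. Of 19 other bZIP partners and competitors, 12 passed the filter. MAFG, a small MAF protein, was lower with JQ1 in both comparisons (FPKM 6.87 and 2.12 without PHA, 3.73 and 1.46 in its presence), and no other of the 12 was past 2-fold in either. Among all genes 8.65% were lower without PHA and 8.00% with it. BACH2, a repressor that competes with AP-1 at its sites in T cells, stood at an FPKM of 1.90 without and 6.50 with PHA in DMSO-treated cells, and ATF5 was higher with PHA in both comparisons (1.40 and 3.71 without JQ1, 2.21 and 5.28 with it). The list's median log2 ratio was 0.11 for JQ1 and -0.48 for JQ1 with PHA, against -0.01 and -0.02 for all genes.

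Of 18 MAP kinases and related kinases upstream of AP-1, 16 passed the filter and 1 was lower past 2-fold with JQ1 without PHA, against 8.65% of all genes. MAPK3, which encodes ERK1, went from an FPKM of 4.37 in the DMSO library to 1.66 in the JQ1 library, and from 3.59 to 1.76 in the PHA pair, where the count ratio was -1.03 on the log2 scale but the ratio of FPKM + 0.1, on which calls rest, was -0.99. MAP2K6, named after its values were seen, had 257 counts with DMSO and 125 with JQ1. Its count ratio was -1.10 on the log2 scale, and its ratio of FPKM + 0.1 was -0.99, just inside 2-fold. With PHA its count ratio was -0.09 (-0.39 to 0.20). The list's median was 0.37 for JQ1 and 0.25 for JQ1 with PHA, against -0.01 and -0.02 for all genes. Of 13 factors that drive JUN and FOS transcription, 11 passed, and 1 was higher past 2-fold in each JQ1 comparison, against 5.22% and, with PHA, 3.69% of all genes. MEF2A, a factor that binds the JUN promoter, had 702 counts with DMSO and 2952 with JQ1, but 724 and 1007 with PHA, a log2 ratio of 2.01 (1.89 to 2.13) and 0.56 (0.42 to 0.70). MKL2, a cofactor of SRF, had 1604, 2038, 748 and 1988 counts, so that the DMSO + PHA library alone was low, and ELK3 was lower with PHA without JQ1 (333 and 149 counts). The list's median was 0.03 for JQ1 and 0.13 for JQ1 with PHA.

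All 11 genes for turnover of JUN and FOS RNA or protein passed the filter, and 0 were past 2-fold with JQ1 in either comparison, where 5.22% of all genes were higher and 8.65% lower without PHA, and 3.69% and 8.00% with it. ZFP36L1, which binds AU-rich elements of short-lived mRNAs, was higher with PHA without JQ1 (302 and 662 counts), and had 370 and 397 counts in JQ1-treated cells, a log2 ratio of 0.18 (-0.03 to 0.39). Medians for JQ1 without and with PHA were -0.16 and -0.05 in this list. Of 9 partners on composite sites 7 passed, and ETS2, an ETS factor that binds beside AP-1, was the 1 past 2-fold. It was lower with JQ1 without PHA (3652 and 1391 counts), where 8.65% of all genes were lower. In the DMSO + PHA and JQ1 + PHA libraries it had 2650 and 1260 counts. The log2 ratio of FPKM + 0.1 was -0.99 there, just inside the 2-fold line. The medians of the list were 0.16 and -0.14. IRF4 and IRF8, which share DNA sites with BATF, were outside the filter and are named after their values were seen: IRF4 had 0 or 1 counts, and IRF8 had 116, 7, 63 and 6 counts, a log2 ratio of -4.12 (-5.46 to -3.03) for JQ1 and -3.31 (-4.81 to -2.11) for JQ1 with PHA.

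Of 26 textbook AP-1 target genes 6 passed the filter, and CD69, also a label check above, was the 1 past 2-fold. It was lower for JQ1 with PHA, as were 8.00% of all genes. It was also past 2-fold with PHA, as were 3.29% of all genes without JQ1 and 2.07% with it. Its counts were 67 (DMSO), 51 (JQ1), 1359 (DMSO + PHA) and 198 (JQ1 + PHA). The log2 ratio for JQ1 over DMSO came to -0.46 (-1.01 to 0.09) without PHA and -2.70 (-2.92 to -2.48) with PHA, while PHA gave 4.28 (3.92 to 4.65) without JQ1 and 2.04 (1.59 to 2.51) with it. The median log2 ratio of the 6 lay at 0.05 for JQ1 and -0.04 for JQ1 with PHA, against -0.01 and -0.02 for all genes.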

How the data were processed

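Total RNA of Jurkat cells was extracted and made into libraries, by the study's methods with an mRNA-seq kit. They were sequenced on an Illumina HiSeq2500, with 1 library for each of 4 conditions. The deposited read counts per gene and the FPKM values computed from them by the authors were used. The authors aligned reads to GRCh38 with Hisat2 2.0.4, while the submitters' processing notes name TopHat2 2.0.9 and Cufflinks 2.1.1. The counting program, its strand setting and the annotation release are not given in the sources used here. The 10 members and the gene lists were chosen with earlier results of these data known. Python 3.11.15 with scipy 1.17.1 was used. Calls were log2 ratios of FPKM + 0.1 past 2-fold over genes averaging an FPKM of 1 or more. Members were also compared by shares of counts with exact (Clopper-Pearson) 95% intervals, and ratios of ratios by Poisson error (delta method). The 4 fold comparisons had no test, since each group was 1 library. A count of 0 was read as up to 3 counts. Scripts were tested on simulated data. The genes named are the 10 members, the 3 nearest profiles of each member in the filter, 3 label checks, overlapping genes and list genes past 2-fold, at most 4 per list and comparison. One of the nearest profiles is not reported here. Exon lengths came from GENCODE 44 and promoter windows from RefSeq. SEPTIN1 (ENSG00000180096) is named by its gene identifier, since the deposited symbol reads as a date. Alternatives were other pseudocounts, filters, folds and scalings, among them edgeR 4.0.16 and DESeq2 1.42.0 factors.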

Additional observations from a re-analysis of the deposited data

Results flagged for a closer look

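FOS and ATF3 were singled out because their JQ1 ratios had opposite signs without and with PHA, and with 1 library per condition the difference was not tested. For FOS, with 2, 9, 52 and 43 counts, the log2 ratio with PHA minus that without it was -2.30. For ATF3, with 79, 113, 92 and 69 counts, it was -0.79.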

How the results depend on the processing

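No paired analysis was possible because each condition had 1 library and no result came from a test. No library could be left out for the same reason. Of 234 member ratios recomputed under the alternatives, 229 stayed near the main ratio of FPKM + 0.1. Near meant within the distance from the count ratio to its interval bound. The other 5 (FOSL2, BATF and BATF3 with a pseudocount of 1) were smaller, and 0 called ratios changed sign. Some of the 229 lay outside the count interval itself. With a pseudocount of 1 these included JUN for JQ1 with PHA (0.92) and BATF for JQ1 against DMSO (-1.23). FOS for PHA without JQ1 did so at 1.79 with edgeR factors. With a mean FPKM of at least 5, 0 members were past 2-fold in either JQ1 comparison, fewer being in that filter. Of its 5708 genes 198 were higher and 372 lower without PHA, and 143 and 324 with it. At 1.5-fold 4 members were called for JQ1 against DMSO, where 1702 of the 11503 genes were higher and 2222 lower. In each PHA comparison 1 was called, with 643 genes higher and 440 lower without JQ1, and 297 and 351 with it. At 4-fold 1 was called in each JQ1 comparison, with 78 genes higher and 197 lower without PHA, and 60 and 199 with it. With a mean FPKM of at least 0.1 or with no filter, 1 member (FOS) was called, as higher, in each PHA comparison. At 0.1, 950 of 18039 genes were higher with PHA in cells without JQ1, and 606 in cells with it. With no filter 1508 and 1004 of 50868 genes were higher. With a pseudocount of 1, 305 genes were higher and 576 lower for JQ1 against DMSO (600 and 995 with 0.1), 225 and 529 with PHA (424 and 920), and the log2 ratio of JUN for JQ1 with PHA was 0.92, inside 2-fold. JUND passed 2-fold for JQ1 against DMSO under common-total, edgeR and DESeq2 scaling. Exon lengths in the calls, under which FOSL2 was added for JQ1 with PHA, and scaling of the ratios of ratios were chosen after seeing the data. JUN gave 0.43 with edgeR factors and 0.42 with DESeq2 factors, with intervals that then excluded 0, and FOS gave -2.27 and -2.29, with intervals that then included 0. By exon length the JUN genes made up 48.0%, 76.9%, 57.5% and 80.9% of the family in the DMSO, JQ1, DMSO + PHA and JQ1 + PHA libraries, the FOS genes 6.17%, 5.15%, 8.86% and 7.14%, and BATF, BATF3 and ATF3 45.9%, 17.9%, 33.6% and 12.0%. The low counts of FOS, FOSB and FOSL1 limit what can be said of them.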
